A study of Homo sapiens with 18 samples.

Results

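HEK293A cells labelled as lacking both LATS1 and LATS2 were compared with HEK293A cells labelled wild type, each after 4 h with water. Water was the control arm of an experiment that also gave zinc chloride at 250 uM or cadmium chloride at 50 uM for the same 4 h. The 6 water libraries, 3 of each genotype, were chosen by their titles out of 18, and the other 12 libraries served to repeat the same contrast under each metal and to share 1 estimate of the spread in the fit. Of 58336 genes in the deposited table, 19393 had enough counts to be tested. HEK293A is an adherent subline of HEK293, a line made from human embryonic kidney. The labels give the edits neither a position nor a number of clones, so an effect of the missing kinases and any other difference between the lines cannot be told apart in any value below. Replicates are called biological, but separate cultures or days are not mentioned, and the p-values therefore rest on the spread of libraries within the 6 groups, which may be only technical.

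LATS1 and LATS2 are the last kinases of the Hippo cascade. Upstream, MST kinases (encoded by STK3 and STK4) with the scaffold SAV1 activate LATS kinases bound to MOB1. Active LATS phosphorylates the coactivators YAP (YAP1) and TAZ (WWTR1), which are then held in the cytoplasm or degraded. Without that brake, YAP and TAZ enter the nucleus, bind TEAD transcription factors, and raise genes of adhesion, matrix, cytoskeleton and growth, among them CCN1, CCN2 and ANKRD1. The question put to the comparison was which transcripts differ at rest, before any metal is given.

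Levels are given as CPM, a gene's counts over 1000000 counts of a library size scaled by TMM. Differences are edgeR log2 fold changes of knockout minus wild type, ± an approximate standard error, so that 1 is a doubling. That error is too small where 1 genotype holds few counts, and such fold changes are less certain than it shows. A gene was called when its adjusted p was under 0.05 (edgeR quasi-likelihood test, Benjamini-Hochberg over 19393 genes). Total counts of the 6 libraries ran from 25478614 to 37148046, so that 1 CPM stood for at least 25 reads. No library was a copy of another: pairs of one genotype gave a chi-square of 1.61 to 2.61 for each degree of freedom, where pure sampling gives 1. The first principal component held 85.0% of the variance among the 6 libraries and separated the genotypes, and the second held 4.5%. Of 8 markers fixed for HEK293, the keratins KRT8 and KRT18, vimentin (VIM), NEFL and LHX1 were above 4 CPM in every library, while IRS4, PAX2 and NEFM stayed under 1 CPM in all 6. Among 36 markers of fibroblasts, keratinocytes, blood cells, endothelium and hepatocytes, 8 were at 0 in all 3 wild-type libraries, among them decorin (DCN), KRT1, involucrin (IVL), PTPRC and HBB. Others were present there, led by KRT10 (19.5 to 22.4 CPM), COL1A1 (6.40 to 8.41 CPM) and COL3A1 (3.56 to 3.94 CPM). The summed blood, endothelial and hepatocyte markers reached at most 3.09, 6.10 and 0.528 CPM in any of the 6.

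LATS1 mRNA was lower in the knockout, and LATS2 mRNA was slightly higher. LATS1 (ENSG00000131023, chromosome 6, 149658153 to 149718256) had 78.2, 81.9 and 77.2 CPM in wild type and 46.1, 44.0 and 45.6 CPM in the knockout. No knockout library reached a wild-type one, and the difference was -0.81 ± 0.04 (adjusted p = 5.62e-20, edgeR quasi-likelihood test, Benjamini-Hochberg). LATS2 (ENSG00000150457, chromosome 13, 20973032 to 21061547) had 16.4, 16.5 and 16.2 CPM in wild type and 18.2, 18.9 and 18.7 CPM in the knockout. Here the 3 knockout libraries lay above the 3 wild-type ones, by 0.18 ± 0.06 (adjusted p = 0.013, edgeR quasi-likelihood test, Benjamini-Hochberg), and the sign was opposite under zinc (-0.32) and cadmium (-0.74). Small edits can leave an mRNA in place, and the LATS2 level is therefore no check of the label.

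The chromosomal surroundings of the 2 kinases differed from each other, as read from stretches picked after the values were seen. Next to LATS1, the nuclear pore gene NUP43 had 113, 118 and 121 CPM in wild type and 118, 117 and 117 CPM in the knockout, so that the groups overlapped (0.00 ± 0.03). The flanking genes KATNA1, GINM1 and PCMT1 lay at -0.13, 0.19 and -0.13, and LRP11, beyond PCMT1, was lower by more (-0.57 ± 0.04). Next to LATS2, the nuclear exporter XPO4 had 72.1, 73.3 and 75.2 CPM in wild type and 35.6, 36.8 and 35.1 CPM in the knockout. Every knockout library was thus far below every wild-type one, at -1.04 ± 0.04. SAP18, SKA3, MRPL57, ZDHHC20 and MICU2, which follow LATS2 along the chromosome, lay at -0.92, -1.05, -1.10, -0.97 and -1.07. All 6 of these genes were lower in zinc and in cadmium too, from -0.90 to -1.23. LATS2 sits between XPO4 and SAP18 and did not share the difference in water. EEF1AKMT1 (ENSG00000150456, chromosome 13, 20728731 to 20773958), a lysine methyltransferase of the elongation factor eEF1A encoded beside XPO4, had 4.68, 3.99 and 4.73 CPM in wild type and 0.0352, 0 and 0.0753 CPM in the knockout. Its 4 knockout counts against 410 in wild type made it nearly absent from the knockout in water, and it held 12 and 3 counts over the 3 knockout libraries in zinc and in cadmium. The growth factor gene FGF9, farther along, fell by 2.60 ± 0.12.

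**Figure D1:**
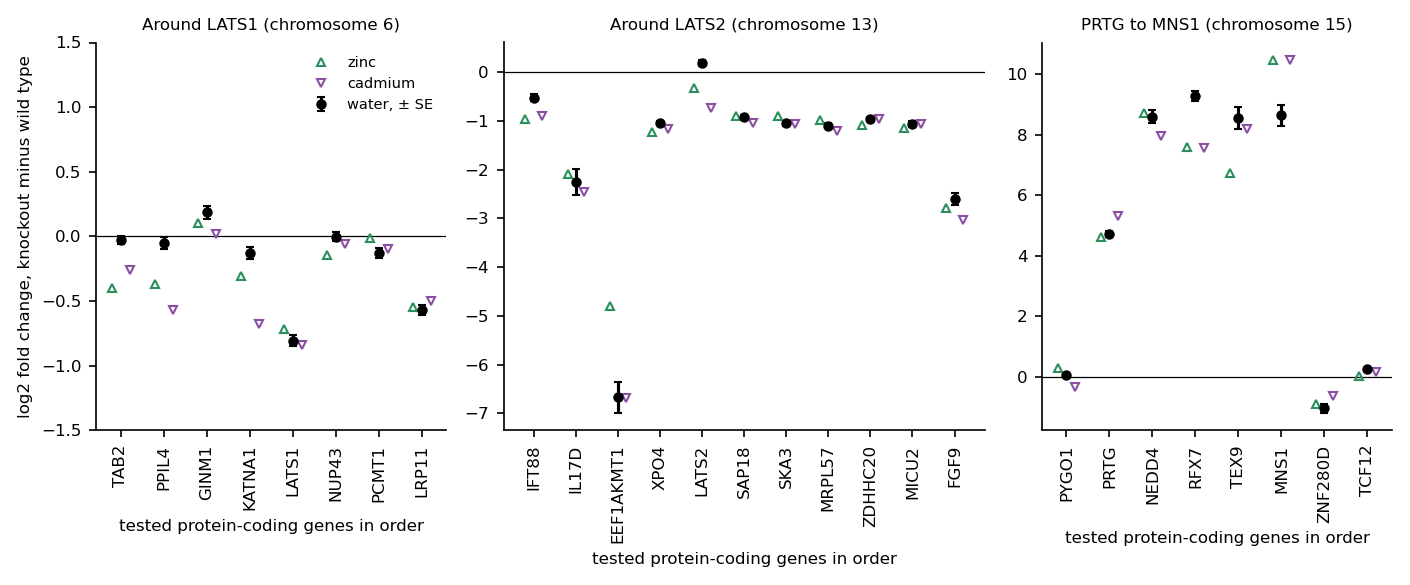
Log2 fold change (y axis, knockout minus wild type) of tested protein-coding genes in their order along 3 chromosome stretches, with black points ± SE for water and open triangles for zinc and cadmium. XPO4 to MICU2 lie near -1 except LATS2 at 0.18, and PRTG to MNS1 lie above 4 in all treatments, while the neighbours of LATS1 lie nearer 0.

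The genotype difference reached most expressed genes, mostly by small amounts. Of 19393 genes, 12200 were called (62.9%), 5973 higher (30.8%) and 6227 lower (32.1%) in the knockout. The median of all genes was -0.02, and 58.5% of the called genes differed by less than 1.5-fold. Changes of at least 2-fold were uneven, with 1981 genes higher (10.2%) and 873 lower (4.5%). At 4-fold the counts were 975 (5.03%) and 192 (0.99%), and at 16-fold 363 (1.87%) and 36 (0.186%). Most of the genes at least 2-fold higher were barely expressed in wild type, where 70.9% of them had a mean under 1 CPM. Likewise, 55.3% of the genes at least 2-fold lower had a knockout mean under 1 CPM. With genes of at least 5 CPM in 3 libraries only, 689 were higher and 323 lower by 2-fold. In 66.9% of all tested genes the 3 knockout libraries lay wholly above or below the 3 wild-type ones. A count of members called in a gene list is therefore to be read against 30.8% and 32.1%. For a count at 2-fold the shares are 10.2% and 4.5%. Most genes named by rule had to have 3 and 3 libraries without overlap, so that separation is a condition of choice and not a result. A gene near 0 in 1 genotype passes the count filter through the other alone and had to differ.

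**Figure D2:**
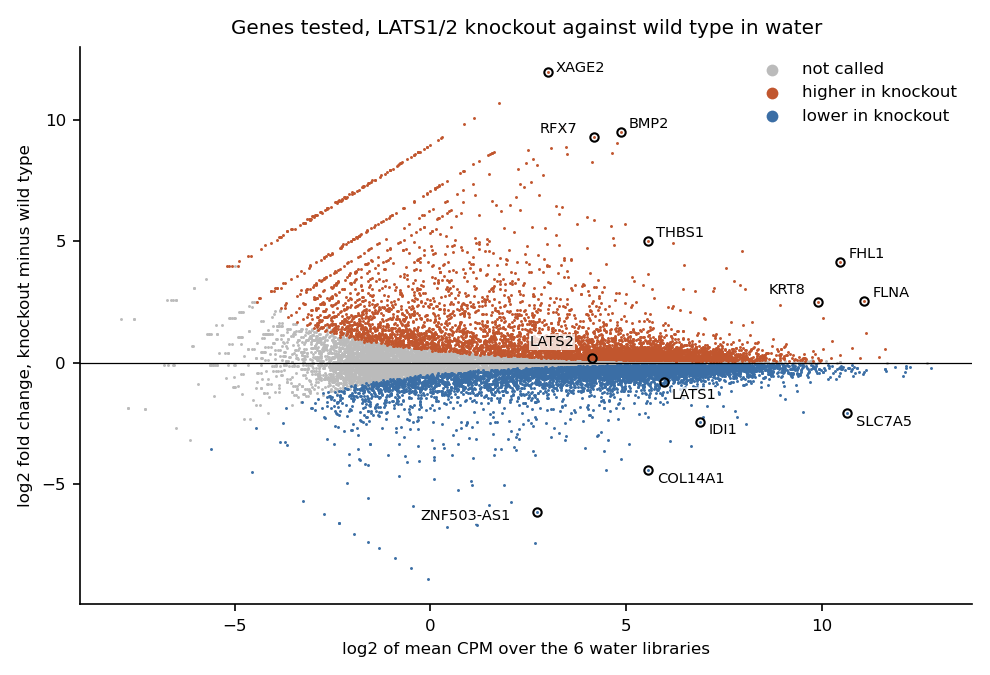
Log2 fold change (y axis) against log2 mean CPM over the 6 water libraries (x axis) for every tested gene, coloured by call. Slanting rows at the left are genes with 0 or very few counts in 1 genotype, whose fitted values depend on the added prior count, and FHL1, FLNA and KRT8 stand out at the right as abundant genes that were higher in the knockout.

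The largest rises in CPM included the actin-binding proteins FLNA and PLS3. FLNA, which encodes the actin crosslinker filamin A, had 627, 642 and 639.9 CPM in wild type and 3596, 3753 and 3729.9 CPM in the knockout. FHL1, a LIM-domain protein of muscle and stress fibres, had 148, 153 and 159 CPM in wild type and 2755, 2681 and 2618 CPM in the knockout. Both groups were tight and far apart, at 2.54 ± 0.04 for FLNA and 4.13 ± 0.03 for FHL1. AHNAK (1.82 ± 0.05), the cytoplasmic actin ACTG1 (0.54 ± 0.03) and the actin bundler PLS3 (0.88 ± 0.03) were, with FLNA, FHL1 and the keratin KRT8, the 6 largest rises in CPM among the genes eligible for naming. SLC7A5, the light chain of the large neutral amino acid transporter, showed the largest fall in CPM, with 2525, 2598 and 2681 CPM in wild type and 604, 609 and 619 CPM in the knockout. No knockout library of SLC7A5 came near the wild-type level (-2.09 ± 0.03). CKB, the brain-type creatine kinase, fell from 1176 to 287 CPM (-2.03 ± 0.03). The elongation factors EEF2 (-0.56 ± 0.02) and EEF1A1 (-0.38 ± 0.02) and the glycolytic enzyme ENO1 (-0.35 ± 0.02) were also lower in the knockout. So was the mitochondrial ribosomal RNA MT-RNR2 (-0.24 ± 0.04). Genotypes without overlap were a condition of entering this ranking.

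Hippo pathway components differed little in size. Of 25 kinases and scaffolds, 15 were higher, 7 lower and 3 uncalled, with a median of 0.18, and none reached 2-fold. STK3 and STK4, the MST kinases, rose by 0.25 ± 0.05 and 0.10 ± 0.03, and the call of STK4 was lost without replicate 3 of either genotype (adjusted p = 0.0692 and 0.0592, edgeR quasi-likelihood test, Benjamini-Hochberg). SAV1, their scaffold, had 45.4, 48.1 and 47.6 CPM in wild type and 49.7, 49.6 and 46.9 CPM in the knockout, groups that overlapped (0.05 ± 0.04). MOB1A, which activates LATS, rose by 0.17 ± 0.04, and MOB1B overlapped between genotypes (0.05 ± 0.05). NF2, the membrane scaffold merlin that recruits LATS, had 78.3, 78.9 and 80.7 CPM in wild type and 128, 126 and 131 CPM in the knockout. The NF2 libraries did not overlap, at 0.69 ± 0.04, the largest rise in the list after that of FRMD6 (0.91 ± 0.05), a FERM-domain protein of the same membrane complex. FAT4, the giant cadherin at the top of the cascade, had the largest fall, -0.91 ± 0.05, and its ligand DCHS1 rose by 0.66 ± 0.15. Of the KIBRA family, WWC2 rose (0.51 ± 0.03) while WWC1 (-0.19 ± 0.04) and WWC3 (-0.42 ± 0.06) fell. The LATS-related NDR kinases STK38 (0.21 ± 0.04) and STK38L (0.38 ± 0.04) and the MAP4K4 kinase (0.26 ± 0.03), which can act in place of MST, rose.

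Among the nuclear effectors and their partners, the widest differences were in VGLL3 and AMOT, while YAP and TAZ themselves differed little. YAP1 had 99.7, 102 and 105 CPM in wild type and 101, 98.1 and 98.6 CPM in the knockout, with overlapping groups (-0.05 ± 0.03). WWTR1, which encodes TAZ, had 62.3, 64.3 and 57.9 CPM in wild type and 43.8, 43.8 and 46.5 CPM in the knockout. All 3 knockout libraries of WWTR1 were below all 3 wild-type ones (-0.46 ± 0.05). TEAD1 (0.77 ± 0.03), TEAD3 (0.54 ± 0.07) and TEAD4 (0.81 ± 0.04), DNA-binding partners of YAP, were higher, and TEAD2 was not called (-0.10 ± 0.05), though it was without wild-type replicate 1 (-0.15). AMOT, an angiomotin that binds YAP at junctions, had 17.7, 17.6 and 16.9 CPM in wild type and 52.8, 53.8 and 52.6 CPM in the knockout. The AMOT difference of 1.61 ± 0.05 was larger than those of its paralogs AMOTL1 (0.297 ± 0.03) and AMOTL2 (0.51 ± 0.03); AMOT lies on chromosome X, in a 10 Mb window whose 44 tested genes had a median of 0.34. VGLL3, a TEAD cofactor, rose by 1.72 ± 0.09, VGLL4, which competes with YAP for TEAD, fell by 0.41 ± 0.06, and VGLL2 was not called (-0.05 ± 0.24). In all, 7 of 12 tested members were higher and 2 lower.

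Most known YAP/TAZ targets were higher in the knockout. Of 26 tested, 22 were called higher (against 30.8% of all genes), 2 lower and 2 uncalled, and 14 were at least 2-fold higher (10.2% of all genes). Their median was 1.07, against -0.02 for all genes. ANKRD1, a nuclear cofactor of muscle and a standard YAP readout, had 47.2, 42.1 and 50.8 CPM in wild type and 454, 426 and 411 CPM in the knockout. The lowest knockout library was far above the highest wild-type one, and the difference was 3.20 ± 0.15. CCN1, a secreted matricellular protein, had 131, 122 and 131 CPM in wild type and 381, 368 and 377 CPM in the knockout. CCN2, its relative also called CTGF, had 196, 175 and 177 CPM in wild type and 415, 389.8 and 385 CPM in the knockout. Neither gene's groups overlapped, with differences of 1.55 ± 0.08 and 1.12 ± 0.06. AXL, a receptor tyrosine kinase, had 0.652, 0.759 and 0.765 CPM in wild type and 13.1, 14.7 and 14.8 CPM in the knockout. It was the member with the largest difference (4.28 ± 0.14), followed by MYOF (3.64 ± 0.08), a membrane repair protein, and the vasoconstrictor EDN1 (3.29 ± 0.26), which stayed under 3 CPM in every library. NUAK2, a kinase of the AMPK family, rose by 1.87 ± 0.11, TGFB2, a TGF-beta ligand, by 1.56 ± 0.10, IGFBP3, which binds insulin-like growth factors, by 2.61 ± 0.11, and the LIM protein AJUBA by 1.02 ± 0.04. ARHGEF17 (1.19 ± 0.04), the tissue factor gene F3 (1.29 ± 0.11) and GADD45B (1.55 ± 0.09) were above 2-fold as well. AREG, an EGF receptor ligand, was called (1.47 ± 0.57) at under 0.4 CPM in all libraries, with overlapping groups, and its call was lost without any 1 of 4 libraries (adjusted p from 0.0508 to 0.114, edgeR quasi-likelihood test, Benjamini-Hochberg). CRIM1, GADD45A, AMOTL2, ASAP1, DOCK5, FOXF2 and PTPN14 rose by 0.24 to 0.70, and LATS2, itself a listed target, by the 0.18 given above. RBMS3 (-0.32 ± 0.11) and FJX1 (-0.21 ± 0.05) fell, the former losing its call without knockout replicate 3, and LPP (0.06 ± 0.05) and NT5E (0.295 ± 0.21) were not called. Of the 22 higher genes, 17 were also called higher in zinc and in cadmium, as were 4421 of the 5973 higher among all genes.

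**Figure D3:**
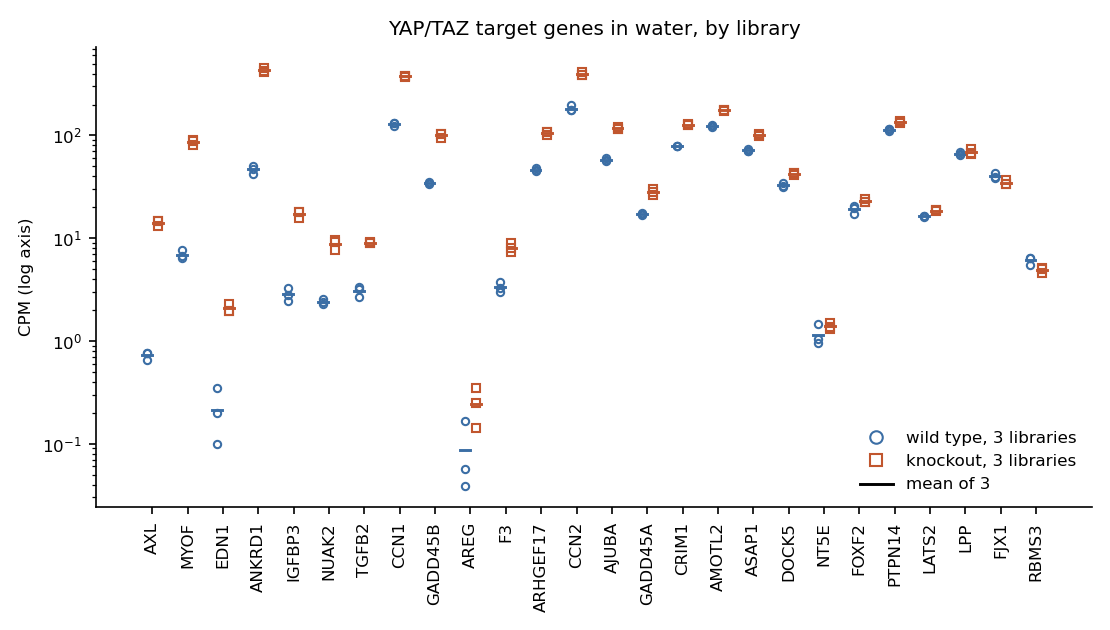
CPM (log axis) of each YAP/TAZ target in the 3 wild-type (circles) and 3 knockout (squares) water libraries, with the mean of 3 as a line, ordered by fold change. Groups are separate for ANKRD1, CCN1 and CCN2, overlap for LPP and NT5E, and turn over at the right for FJX1 and RBMS3.

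TEAD proteins bind the letters CATTCC or, on the other strand, GGAATG. Promoters of 4 called targets are shown because they hold these letters, in capitals, within 250 bases before the transcription start. They are the called targets with the largest differences among those with a match, on the strand of the gene, from RefSeq on GRCh38.p14.
ANKRD1 (chr10:90921088-90921337, minus strand): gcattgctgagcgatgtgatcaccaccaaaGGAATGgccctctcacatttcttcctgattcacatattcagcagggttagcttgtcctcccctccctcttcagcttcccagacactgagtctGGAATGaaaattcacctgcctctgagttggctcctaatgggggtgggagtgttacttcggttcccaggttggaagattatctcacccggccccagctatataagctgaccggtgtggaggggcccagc
NUAK2 (chr1:205321746-205321995, minus strand): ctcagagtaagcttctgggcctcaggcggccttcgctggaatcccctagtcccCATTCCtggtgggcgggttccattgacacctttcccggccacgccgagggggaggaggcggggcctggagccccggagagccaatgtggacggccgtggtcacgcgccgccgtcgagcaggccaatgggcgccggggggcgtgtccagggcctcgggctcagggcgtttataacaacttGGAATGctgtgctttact
TGFB2 (chr1:218345086-218345335, plus strand): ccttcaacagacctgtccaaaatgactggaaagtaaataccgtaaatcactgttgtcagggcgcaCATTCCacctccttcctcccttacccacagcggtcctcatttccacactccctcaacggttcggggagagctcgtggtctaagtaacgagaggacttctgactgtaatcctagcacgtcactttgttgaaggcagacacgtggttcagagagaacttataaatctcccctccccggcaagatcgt
CCN2 (chr6:131951373-131951622, minus strand): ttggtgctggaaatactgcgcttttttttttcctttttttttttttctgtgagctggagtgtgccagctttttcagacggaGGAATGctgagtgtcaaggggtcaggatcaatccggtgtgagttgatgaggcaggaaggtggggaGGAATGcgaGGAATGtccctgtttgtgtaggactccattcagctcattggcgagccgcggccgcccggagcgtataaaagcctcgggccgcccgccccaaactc
The first bases of the matches lie at -220 and -128 in ANKRD1, -197 and -18 in NUAK2, -185 in TGFB2, and -169, -104 and -95 in CCN2, counted from the transcription start. The 3 matches of CCN2 thus include a pair separated by 3 bases. Of 27305 promoters of this length in the RefSeq table, 11.9% hold the letters on either strand. Promoters were found for 20 of the 26 targets (76.9%) and for 60.7% of the genes at least 2-fold higher, too few for a comparison of motif shares between groups of genes, so none is given. A match is only a stretch of letters, and no binding was measured.

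Actin cytoskeleton genes, many of them targets of the serum response factor SRF, were higher in the knockout in most cases. Of 24 tested, 18 were higher and 5 lower, 8 were at least 2-fold higher, and the median was 0.55. MYL9, the regulatory light chain of myosin, had 0, 0.132 and 0.170 CPM in wild type and 33.4, 36.0 and 35.4 CPM in the knockout. It was nearly silent in wild type and clearly expressed in the knockout (8.27, on 10 counts over the wild-type libraries). MYL9 passed the count filter only through the knockout and so had to differ. The tropomyosins TPM1 (2.94 ± 0.05) and TPM2 (2.29 ± 0.07), calponin CNN2 (2.46 ± 0.07), transgelin (TAGLN, 1.87 ± 0.12) and FHL2 (1.396 ± 0.05) rose, and zyxin (ZYX) and the myosin heavy chain MYH9 by less (0.67 ± 0.05 and 0.57 ± 0.03). The 2 cytoplasmic actins moved apart, ACTG1 rising from 2568 to 3731 CPM and ACTB falling from 2137 to 1566 CPM. SRF itself fell by 0.10 ± 0.04, and vinculin (VCL) was not called (0.04 ± 0.03).

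Extracellular matrix genes rose widely. Of 28 collagens, laminins and fibronectin tested, 21 were higher and 4 lower, with 12 at least 2-fold higher and 2 at least 2-fold lower, and a median of 0.84. COL5A1, the chain of type V collagen that nucleates fibrils, had 23.5, 22.6 and 24.1 CPM in wild type and 333, 360.2 and 356 CPM in the knockout. FN1, fibronectin, had 19.6, 19.7 and 18.8 CPM in wild type and 156, 163 and 153 CPM in the knockout. Wild-type and knockout libraries were far apart for both, at 3.901 ± 0.05 and 3.03 ± 0.04. COL5A2 (2.65 ± 0.06), COL12A1 (2.66 ± 0.06), COL9A3 (3.51 ± 0.12) and the basement membrane chains COL4A1 (1.19 ± 0.03) and COL4A2 (1.01 ± 0.04) rose. The laminin alpha chains split, with LAMA5 higher (0.76 ± 0.05) and LAMA3 (-1.68 ± 0.05) and LAMA4 (-2.26 ± 0.05) lower. Of 24 matricellular proteins and matrix proteases, 18 were higher and 5 lower, 11 of them at least 2-fold higher. THBS1, thrombospondin 1, had 2.95, 2.38 and 3.09 CPM in wild type and 93.3, 88.9 and 90.5 CPM in the knockout. The knockout held at least 88.9 CPM in each library where wild type had at most 3.09, a difference of 5.01 ± 0.08. Tenascin C (TNC, 2.46 ± 0.07), SPARC (1.21 ± 0.03), the lysyl oxidases LOXL2 (1.04 ± 0.05) and LOXL4 (1.44 ± 0.05) and TIMP2 (1.36 ± 0.05) rose, whereas lysyl oxidase LOX (-0.80 ± 0.06) and the membrane protease MMP14 (-0.83 ± 0.08) fell. The 8 fibroblast markers, which include COL1A1 and COL3A1, summed to 12.99 to 14.4 CPM in wild type and 52.3 to 58.6 CPM in the knockout. Of them, COL1A2 and DCN were at or near 0 in the knockout, with highest values of 0.0704 and 0.0251 CPM. In bulk RNA a change in the number of cells of a type and a change in RNA per cell cannot be told apart.

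Adhesion genes changed in both directions, and the keratins KRT8, KRT18 and KRT19 rose. CDH13, a cadherin anchored to the membrane by lipid, had 0, 0.0330 and 0.0283 CPM in wild type and 21.9, 20.8 and 19.6 CPM in the knockout. With 2 counts in wild type and 2069 in the knockout, its ratio was 947 (95% counting interval 262 to 7829). CDH3, P-cadherin, had 0.498, 0.891 and 0.566 CPM in wild type and 17.6, 18.7 and 20.6 CPM in the knockout, so that all knockout libraries lay above all wild-type ones (4.86 ± 0.12). CDH4 rose (4.01 ± 0.12), N-cadherin CDH2 rose slightly (0.16 ± 0.03), and CDH24 fell (-1.12 ± 0.05). Of 11 tested cadherins and catenins, 8 were higher and 2 lower, with CTNNB1, beta-catenin, not called (0.05 ± 0.03). Of the 19 listed, 8 did not pass the count filter. CDH13 passed it only through the knockout, so the count of higher members is a description. Among 16 integrins, 8 were higher and 5 lower; ITGA3, a laminin receptor chain, rose from 5.63 to 20.1 CPM (1.83 ± 0.08), ITGB1, the common beta chain, rose by 0.37 ± 0.03, and ITGA4 fell by 0.69 ± 0.05. Protocadherin PCDH9 had 23.8, 25.9 and 25.2 CPM in wild type and 196, 194 and 187 CPM in the knockout. It stood clearly higher in the knockout (2.94 ± 0.06), whereas PCDH7 fell (-0.83 ± 0.04). The keratin pair of simple epithelia moved together: KRT8 had 286, 307 and 282 CPM in wild type and 1639.8, 1653 and 1628 CPM in the knockout. KRT18 had 162, 157 and 154 CPM in wild type and 831, 818 and 808 CPM in the knockout. Both rose by similar amounts (2.49 ± 0.05 and 2.38 ± 0.04), and KRT19 rose by 2.51 ± 0.06. Vimentin, the intermediate filament of mesenchymal cells, fell from 333 to 176 CPM (-0.92 ± 0.04), while the mesenchymal regulator SNAI1 rose (1.95 ± 0.12) and ZEB1 (-0.297 ± 0.04) and TWIST1 (-0.61 ± 0.09) fell. Of 22 epithelial and mesenchymal genes, 15 were higher and 4 lower. The 8 keratinocyte markers summed to 21.1 to 23.9 CPM in wild type and 43.2 to 45.7 CPM in the knockout, and nearly all of it was KRT10 and SFN. KRT10 held 19.5 to 22.4 CPM in wild type and 22.8 to 23.7 CPM in the knockout, and SFN held 1.501 to 1.61 and 20.1 to 22.0 CPM. KRT1 and IVL were at 0 in all 6 libraries and KRT5, KRT14, TP63 and DSG3 under 0.2 CPM.

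**Figure D4:**
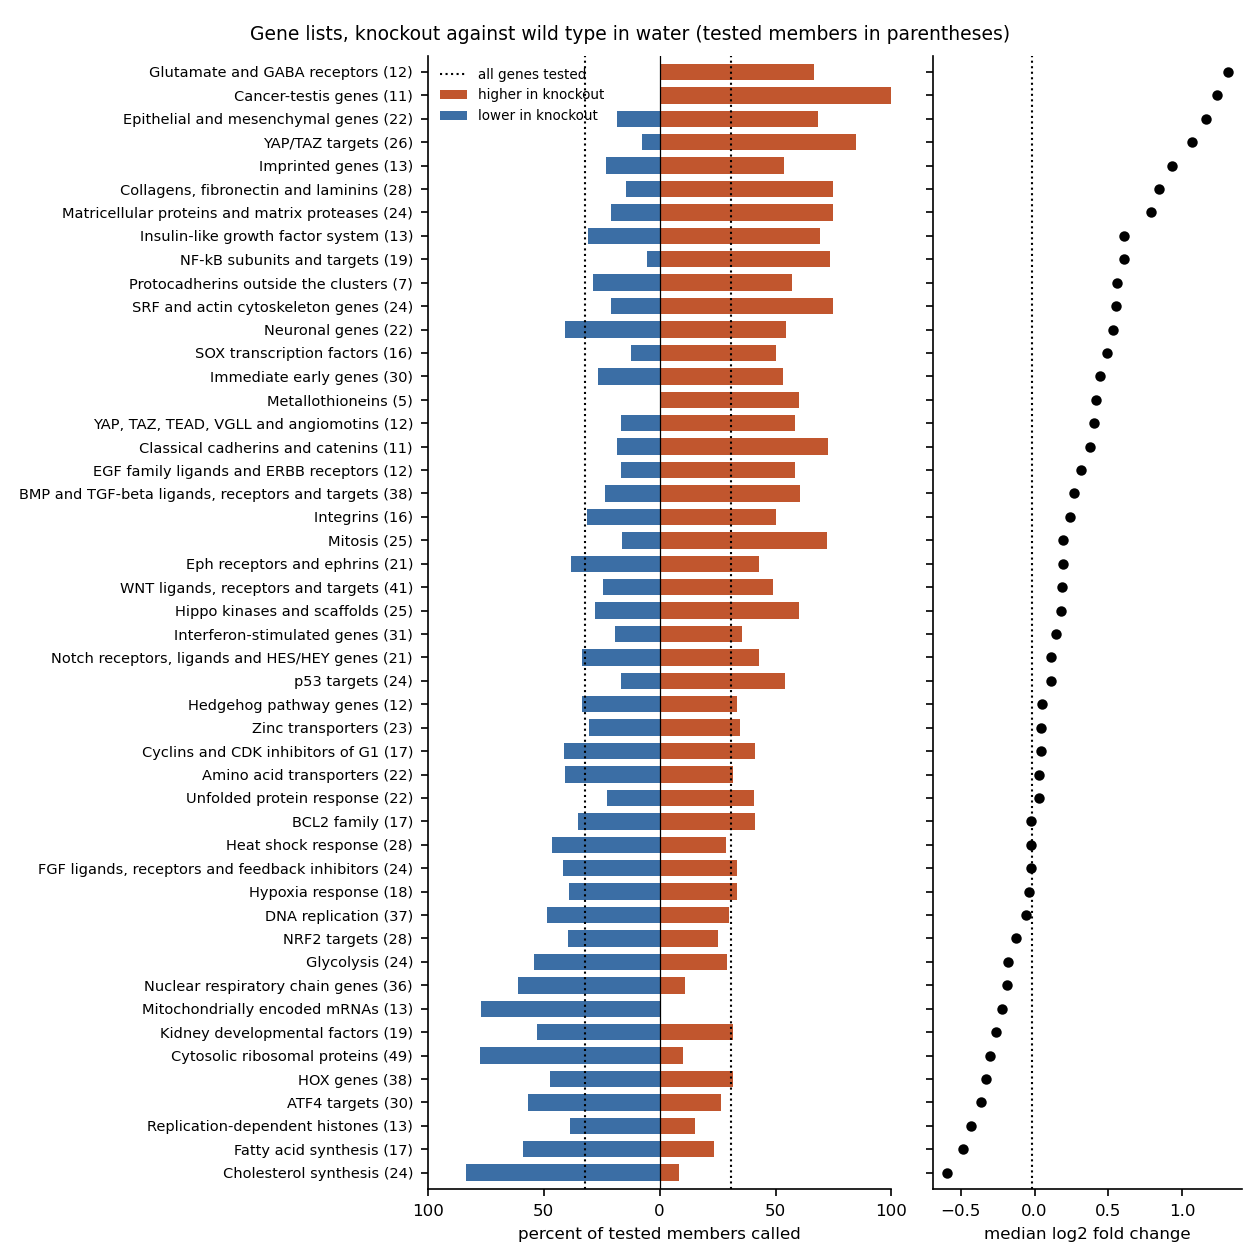
For each of 48 gene lists, the percent of tested members called higher (right) or lower (left) in the knockout and, beside it, the median log2 fold change, with dotted lines for all genes tested. Lists with many members that failed the count filter, such as cancer-testis genes and glutamate and GABA receptors, show only members expressed in at least 1 group; YAP/TAZ targets reach 1.07 and cholesterol synthesis -0.59.

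Secreted signals and their receptors included some of the widest differences. BMP2, a bone morphogenetic protein, had 0.0383, 0.0330 and 0.142 CPM in wild type and 59.8, 57.2 and 57.4 CPM in the knockout. It went from near 0 to the level of a well expressed gene (9.50, on 7 counts over the wild-type libraries). BMP2 passed the count filter only through the knockout and so had to differ. GREM1, a secreted BMP antagonist, had 0.307, 0.231 and 0.198 CPM in wild type and 18.9, 20.3 and 22.3 CPM in the knockout. Its groups were likewise far apart (6.40 ± 0.14), and a further antagonist, noggin (NOG), rose by 3.62 ± 0.21. The BMP-responsive genes SMAD6 (1.35 ± 0.04), ID1 (1.250 ± 0.07) and ID2 (0.92 ± 0.07) were higher, and ID3 was not called (0.13 ± 0.07). Of 38 genes of the BMP and TGF-beta list, 23 were higher and 9 lower, 9 and 3 of them by 2-fold.

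NRG1, a ligand of ERBB3 and ERBB4, had 0.958, 1.15 and 0.963 CPM in wild type and 19.8, 20.3 and 20.2 CPM in the knockout, without overlap (4.29 ± 0.10). Its receptors moved apart, ERBB3 rising from 1.97 to 7.61 CPM (1.95 ± 0.11) and ERBB4 falling from 12.6 to 5.17 CPM (-1.29 ± 0.09), while EGFR rose by 0.36 ± 0.04 and ERBB2 by 0.21 ± 0.04. In the FGF list 8 were higher and 10 lower of 24, with a median of -0.03 that became 0.03 with library size alone. The receptors FGFR1 (0.63 ± 0.04) and FGFR2 (0.80 ± 0.04) rose, the feedback inhibitor SPRY4 (-1.81 ± 0.08) and the ETS factor ETV5 (-1.94 ± 0.08), both induced by FGF signals, fell, and the ERK phosphatase DUSP5 rose from 2.20 to 12.1 CPM (2.47 ± 0.10).

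In the WNT list 20 of 41 were higher and 10 lower. The secreted inhibitors DKK1 (4.25 ± 0.18) and SFRP1 (1.91 ± 0.05) rose. LGR5, an R-spondin receptor, had 39.9, 45.2 and 40.2 CPM in wild type and 11.5, 11.9 and 10.7 CPM in the knockout. It was lower in all knockout libraries (-1.88 ± 0.07), as was the ubiquitin ligase RNF43 (-1.57 ± 0.07), and AXIN2 rose (0.50 ± 0.09). Notch genes were mixed, 9 higher and 7 lower of 21. The ligand JAG2 (-1.57 ± 0.06) and the effectors HES4 (-1.63 ± 0.08), HES1 (-0.63 ± 0.07), HEY1 (-0.80 ± 0.06) and HEY2 (-0.87 ± 0.10) fell, and JAG1 was not called (0.11 ± 0.05); JAG2 lies in a window of chromosome 14 whose 74 tested genes had a median of -0.45. Of 12 Hedgehog genes 4 rose and 4 fell, with the coreceptors GAS1 (-1.01 ± 0.07) and BOC (-0.93 ± 0.08) lower. In the insulin-like growth factor system, 9 of 13 were higher and 4 lower. The binding protein IGFBP4 (2.07 ± 0.11) and the receptor IGF1R (0.61 ± 0.04) rose, and IGFBP5 (-1.65 ± 0.12) and the adaptor IRS2 (-1.21 ± 0.04) fell. Eph receptors and ephrins counted 9 higher and 8 lower of 21. EPHA3 had 55.2, 53.5 and 55.6 CPM in wild type and 3.34, 3.73 and 3.49 CPM in the knockout. It was among the most reduced genes (-3.96 ± 0.07), as were EPHA5 (-2.53 ± 0.13), EPHA8 (-2.50 ± 0.16) and EPHA10 (-3.08 ± 0.10), whereas the ligands EFNA1 (1.41 ± 0.08), EFNB1 (1.06 ± 0.06) and EFNB2 (0.88 ± 0.04) rose.

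Transcription factors of development differed by family. SOX2, a factor of neural progenitors and stem cells, had 23.8, 26.8 and 25.01 CPM in wild type and 4.89, 4.95 and 4.60 CPM in the knockout. SOX11, which acts in immature neurons, had 5.71, 5.54 and 5.92 CPM in wild type and 63.4, 67.4 and 65.9 CPM in the knockout. They moved in opposite directions without overlap (-2.40 ± 0.08 and 3.51 ± 0.06). SOX4, a relative of SOX11, rose by 0.90 ± 0.03, and of 16 SOX genes tested 8 were higher and 2 lower. HOX genes, which set position along the body, were split by cluster. All 11 tested HOXA genes were lower, from -0.61 to -3.20, while of 9 HOXB genes 5 were higher and 4 lower, of 9 HOXC genes 6 were higher and 1 lower, and of 9 HOXD genes 1 was higher and 2 lower. HOXA5 had 41.8, 40.1 and 44.5 CPM in wild type and 4.61, 4.67 and 4.52 CPM in the knockout, with no overlap (-3.20 ± 0.07), and HOXC13 rose from 6.29 to 27.8 CPM (2.14 ± 0.07). The HOXA cluster lies on chromosome 7 in a 10 Mb window whose 72 tested genes, the cluster included, had a median of -0.62, with 53 lower. Kidney developmental factors were lower in 10 of 19 and higher in 6. SIX2, which keeps nephron progenitors undifferentiated, had 46.1, 45.8 and 48.4 CPM in wild type and 8.52, 8.90 and 10.1 CPM in the knockout. SIX2 (-2.34 ± 0.06), EYA1 (-2.73 ± 0.14) and FOXC1 (-1.76 ± 0.04) fell, and FOXC2 rose from 0.2998 to 14.99 CPM (5.55 ± 0.18). WT1 (0.28 ± 0.06) and LHX1 (0.56 ± 0.10) rose by less, and SALL1 was not called (-0.03 ± 0.08).

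Neuronal genes, a part of the usual HEK293 profile, were higher in 12 and lower in 9 of 22 tested. L1CAM, a neural adhesion molecule on chromosome X, had 0.882, 0.924 and 1.05 CPM in wild type and 45.6, 47.7 and 49.9 CPM in the knockout, and MAP2, of dendritic microtubules, had 18.4, 17.0 and 16.5 CPM in wild type and 2.08, 2.48 and 2.26 CPM in the knockout. The former rose by 5.63 ± 0.10 and the latter fell by 2.92 ± 0.10. Neurofilament NEFL rose from 39.5 to 104 CPM (1.397 ± 0.04), and UCHL1 fell from 521 to 275 CPM (-0.92 ± 0.03). Of 25 glutamate and GABA receptor genes, 12 passed the count filter and 8 of these were higher; a gene expressed in the knockout alone passes only through it, so this count is a description. GABRQ rose from 3.09 to 10.5 CPM and GRIN2D from 2.82 to 7.34 CPM.

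Most cholesterol synthesis genes and 10 of 17 fatty acid synthesis genes were lower. Of 24 cholesterol synthesis genes, 20 were lower (32.1% of all genes) and 2 higher, 7 of them at least 2-fold lower, with a median of -0.59. IDI1, which isomerises the isoprenoid building block, had 218, 189.7 and 197 CPM in wild type and 37.7, 35.1 and 38.0 CPM in the knockout. The knockout libraries lay close together and far below wild type (-2.44 ± 0.05). The window of IDI1, the first 10 Mb of chromosome 10, had a median of -0.87 over 42 genes. INSIG1, the sterol-responsive regulator (-1.33 ± 0.05), the enzymes SQLE (-1.03 ± 0.03) and LSS (-0.98 ± 0.04) and the transcription factor SREBF2 (-0.45 ± 0.03) fell. NSDHL (0.43 ± 0.04) and FDFT1 (0.12 ± 0.03) rose. Of 17 genes of fatty acid synthesis, 10 were lower and 4 higher. FASN, fatty acid synthase, fell from 1400.1 to 877 CPM (-0.68 ± 0.03), and the desaturases SCD (-0.93 ± 0.03), FADS1 (-0.84 ± 0.03) and FADS2 (-1.28 ± 0.03) and the factor SREBF1 (-1.15 ± 0.07) fell, while FADS3 rose (1.18 ± 0.05).

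Amino acid supply followed the same direction in part. Of 30 targets of ATF4, the transcription factor of the integrated stress response, 17 were lower and 8 higher (median -0.36). SLC3A2, the partner chain of SLC7A5, fell from 794 to 283 CPM (-1.49 ± 0.03), and the serine synthesis enzymes PHGDH (-0.74 ± 0.03), PSAT1 (-0.36 ± 0.03) and PSPH (-0.96 ± 0.05) fell, as did ATF4 itself (-0.36 ± 0.03). ATF3 (1.14 ± 0.05), PPP1R15A (0.94 ± 0.04) and TRIB3 (0.37 ± 0.07) rose. The 22 amino acid transporters tested were balanced, 7 higher and 9 lower, with SLC7A8 higher (1.88 ± 0.08). Of 24 glycolysis genes 13 were lower and 7 higher, and only the lactate exporter SLC16A3 (2.12 ± 0.13) and the glucose transporter SLC2A3 were past 2-fold. SLC2A3 had 21.4, 19.04 and 19.4 CPM in wild type and 492, 471 and 478 CPM in the knockout. Its difference of 4.59 ± 0.04 was called beside a small rise of SLC2A1 (0.54 ± 0.04); SLC2A3 is near-identical in parts to its neighbour SLC2A14, and reads of the 2 may not be told apart. Among 18 hypoxia-related genes, 6 rose and 7 fell, with EPAS1, encoding HIF-2 alpha, rising from 6.86 to 49.7 CPM (2.86 ± 0.06). ADM rose (1.98 ± 0.07), NDRG1 fell (-1.002 ± 0.03) and VEGFA was not called (0.05 ± 0.05); the list's median of -0.04 became 0.02 with library size alone.

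Most ribosomal protein genes, and 22 of 36 nuclear genes of the respiratory chain, were lower, each by less than 2-fold. Of 49 cytosolic ribosomal protein genes, 38 were lower and 5 higher, with a median of -0.30 and none past 2-fold. RPL35 had 642, 653 and 646 CPM in wild type and 375, 381 and 369.6 CPM in the knockout. It had the largest fall (-0.79 ± 0.03), and RPS27L, a p53-responsive paralog, the largest rise (0.88 ± 0.04), followed by the X-linked RPS4X (0.59 ± 0.02). Ribosomal protein genes have many processed copies, with the same uncertainty over shared reads as any family with close copies. Of 13 mitochondrially encoded mRNAs, 10 were lower and none higher (median -0.22). The share of all counts on mitochondrial genes was 4.84% ± 0.08 in wild type and 4.40% ± 0.19 in the knockout (SD, n = 3 each; exact permutation test, two-sided, p = 0.1, the smallest this design allows). Of 36 nuclear genes of the respiratory chain, 22 were lower and 4 higher (median -0.19). The ATP synthase subunits ATP5F1A (-0.97 ± 0.03) and ATP5F1C (-0.98 ± 0.03) led them, and each lies in a window with a low median, -0.62 on chromosome 18 and -0.87 on chromosome 10. Of 13 replication-dependent histone genes, 5 were lower and 2 higher. Most such mRNAs lack poly(A) tails, and these libraries were made for polyadenylated RNA.

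Among 17 G1 cyclins, kinases and inhibitors, 7 were higher and 7 lower, and CCND1, CCND2 and the inhibitor CDKN2D (1.11 ± 0.10) were at least 2-fold higher. CCND1, cyclin D1, which drives entry into S phase, had 9.51, 10.8 and 10.5 CPM in wild type and 166, 171 and 168 CPM in the knockout. CCND2, cyclin D2, had 24.4, 25.1 and 26.1 CPM in wild type and 121, 117 and 124 CPM in the knockout. Both were far higher in the knockout, by 4.03 ± 0.05 and 2.25 ± 0.04, and CCND3 was not called (0.05 ± 0.04). The inhibitors CDKN1B (-0.86 ± 0.04) and CDKN2A (-0.88 ± 0.06) and the restraint RB1 (-0.60 ± 0.04) fell, and CDKN1A rose by 0.17 ± 0.06. Of 25 mitosis genes, 18 were higher and 4 lower (median 0.19, none past 2-fold), with UBE2C at 0.86 ± 0.04 and AURKA at 0.43 ± 0.04, both in windows of chromosome 20 with a median of 0.31. Of 37 DNA replication genes, 11 rose and 18 fell, around a median of -0.06; the polymerase POLA1 on chromosome X rose (0.79 ± 0.03) and the licensing factor CDT1 fell (-0.67 ± 0.04). Of 24 p53 targets 13 were higher and 4 lower, with rises of TP53INP1 (1.004 ± 0.09) and the death receptor TNFRSF10B (0.66 ± 0.03). The BCL2 family had 7 higher and 6 lower of 17. The 4 widest differences were all in proapoptotic members, with BMF (-2.34 ± 0.09) and HRK (-1.85 ± 0.10) lower and BOK (2.05 ± 0.29) and BIK (1.99 ± 0.24) higher.

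Stress and immune genes at rest were mixed. Of 28 heat shock genes, 13 were lower and 8 higher (median -0.02, or 0.03 with library size alone), with HSPB1 lower (-0.69 ± 0.06) and HSPB8 higher (0.71 ± 0.09). Of 28 NRF2 targets 11 were lower and 7 higher, with NQO1 (-0.58 ± 0.07) and the ferritin chain FTL (-0.55 ± 0.03) lower. Of 22 genes of the unfolded protein response 9 rose and 5 fell. Metallothioneins, which bind zinc and cadmium, were low in water: MT2A had 17.1, 22.9 and 20.2 CPM in wild type and 24.8, 29.3 and 26.4 CPM in the knockout. It rose by 0.41 ± 0.08, and 3 of 5 tested members were higher. Of 23 zinc transporters 8 rose and 7 fell, and the exporter SLC30A1 was not called (0.05 ± 0.04). Immediate early genes were higher in 16 and lower in 8 of 30. ARC, a synaptic early gene, had 2.49, 2.21 and 2.58 CPM in wild type and 30.5, 30.8 and 32.1 CPM in the knockout, and the phosphatase DUSP1 had 55.7, 54.2 and 58.5 CPM in wild type and 207, 201 and 191 CPM in the knockout. Both were separate between genotypes (3.68 ± 0.09 and 1.83 ± 0.10), whereas JUN (-0.44 ± 0.03), EGR1 (-0.36 ± 0.12) and MYC (-0.80 ± 0.05) fell. Of 19 NF-kB subunits and targets, 14 were higher and 1, NFKBIB, lower, with a median of 0.61. NFKB2 had 14.3, 17.2 and 14.3 CPM in wild type and 30.1, 31.5 and 31.2 CPM in the knockout. NFKB2 (1.02 ± 0.07), RELB (1.06 ± 0.12), TNFAIP2 (1.38 ± 0.07) and ICAM1 (4.33 ± 0.24) rose. ICAM1 still reached no more than 4.05 CPM on average. Among 31 interferon-stimulated genes, 11 rose and 6 fell. BST2, tetherin, which holds budding viruses at the membrane, had 60.0, 61.9 and 63.3 CPM in wild type and 6.20, 6.93 and 5.35 CPM in the knockout. It was one of the most reduced genes (-3.34 ± 0.07), and OAS3 rose from 20.6 to 72.0 CPM (1.81 ± 0.05).

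Some genes were present in 1 genotype and all but absent from the other. Genes with clone names and genes that mark sex were not counted here. Among the rest, wild type held at most 3 counts over its 3 libraries in 12 genes whose knockout mean was at least 5 CPM. None was so in the other direction, though EEF1AKMT1, at 4 knockout counts and 4.47 CPM in wild type, lay just outside these limits. XAGE2, a cancer-testis gene of chromosome X, had 0 counts in wild type and 16.2, 16.4 and 15.4 CPM in the knockout, at least 487-fold higher if the 3 wild-type libraries together are given 3 counts. GSPT2, an intronless copy of a translation termination factor on chromosome X, had 3 counts against 1673, a ratio of 511 (95% counting interval 174 to 2479). The zinc finger genes ZNF492 and ZNF502 and the repressor BCL6B had ratios of 517, 372 and 334. TENM1, an X-linked teneurin (8.86), OLR1, a scavenger receptor (9.04), and ZNF532 (8.64) were above 20 CPM in each knockout library. All were under 0.2 CPM in each wild-type one, on only 4, 9 and 11 counts in total, so these fold changes are imprecise. Of 33 genes on a list of cancer-testis and related MAGE genes, 11 passed the count filter and all 11 were higher. MAGEC1 and MAGEC2 had 0 counts in wild type and were at least 34.5-fold and 13.4-fold higher on the same floor; genes that pass the filter only through the knockout had to differ, so the count is a description. MAGEB2 rose from 0.0424 to 13.3 CPM. MAGEH1, already expressed in wild type, rose from 5.74 to 13.04 CPM. Both lie on chromosome X, where 433 of 663 tested genes were higher (65.3%). GSPT2, XAGE2 and the MAGE genes have close copies, and how reads shared between copies were counted is unknown. Imprinted genes were higher in 7 and lower in 3 of 13, with rises of PHLDA2 (2.20 ± 0.11) and of KCNQ1OT1 (1.28 ± 0.10), an antisense RNA inside KCNQ1 that lay at 1.29 on the strand with most reads.

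The most reduced genes included a chromosome 10 neighbourhood. ZNF503, a zinc finger repressor, had 179, 184 and 197 CPM in wild type and 16.8, 15.8 and 18.4 CPM in the knockout. ZNF503 (-3.45 ± 0.07) and its antisense RNAs ZNF503-AS1 (-6.16 ± 0.17) and ZNF503-AS2 (-4.44 ± 0.08) fell, and on the strand with most reads alone, which separates overlapping partners, they lay at -3.48, -6.33 and -4.39. COL14A1, a fibril-associated collagen, had 93.3, 88.9 and 90.8 CPM in wild type and 3.66, 4.45 and 4.39 CPM in the knockout. It was lower (-4.44 ± 0.06), whereas most of the listed collagens were higher. ALDH1A2, which makes retinoic acid, had 129, 128 and 123 CPM in wild type and 12.8, 13.7 and 13.5 CPM in the knockout. Its libraries did not overlap (-3.25 ± 0.04). The DM-domain transcription factor DMRT3 (-3.64 ± 0.08), the kinase CAMK2B (-3.79 ± 0.13), amphiphysin (AMPH, -3.65 ± 0.13) and MANEAL (-3.52 ± 0.08) were also more than 8-fold lower.

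In a run of 5 neighbouring genes on chromosome 15, 4 were almost silent in wild type, PRTG was low there, and all were expressed in the knockout. It was the longest of 6 runs of at least 3 adjacent protein-coding genes that differed 8-fold or more in 1 direction. All 6 runs were higher, but so were most large differences among all genes (363 higher and 36 lower at 16-fold). The KLK run reached at most 2.54 CPM on average, and that of MAGEC1, MAGEC2 and SPANXN3 at most 1.12 CPM. NEDD4, RFX7, TEX9 and MNS1 passed the count filter only through the knockout and so had to differ. NEDD4, a ubiquitin ligase (chromosome 15, 55826922 to 55993746), had 0, 0.0990 and 0.0566 CPM in wild type and 22.2, 22.1 and 23.2 CPM in the knockout. RFX7, a DNA-binding factor (chromosome 15, 56087280 to 56243266), had 0.0767, 0.0990 and 0 CPM in wild type and 36.6, 36.1 and 36.3 CPM in the knockout. Over the 3 wild-type libraries NEDD4 and RFX7 each held 5 counts, against 2260 and 3636 in the knockout. TEX9 and MNS1, the latter a protein of sperm flagella, each held 1 count in wild type and 553 and 594 in the knockout, ratios of 506 and 544 with 95% counting intervals from 90.5 to 20040.2 and from 97.3 to 21523. PRTG, protogenin, at the end of the run, had 1.07, 1.29 and 1.16 CPM in wild type and 32.4, 31.7 and 29.1 CPM in the knockout. Beyond it PYGO1 had overlapping groups (0.07 ± 0.06), and beyond MNS1 ZNF280D was lower (-1.03 ± 0.14). The other 4 genes of the run stayed at 14 counts or fewer in each other wild-type group, with 3 counts of TEX9 and 0 of MNS1 in zinc, 14 of RFX7 in both zinc and cadmium, and 5 and 11 of NEDD4, whereas every knockout group held at least 380 counts of each.

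Differences were also uneven across the chromosomes. Genes of chromosome X had a median of 0.40, with 433 of 663 tested higher (65.3%) and 61 lower (9.2%), against 30.8% and 32.1% of all genes. FLNA, FHL1, AMOT, PLS3, RPS4X and the XAGE and MAGE genes named above are X-linked. Chromosome 14 had the lowest median, -0.31, with 349 of 602 lower (58.0%), followed by chromosomes 7 (-0.22) and 18 (-0.20). The medians of chromosome X were 0.41 in zinc and 0.42 in cadmium, and those of chromosome 14 were -0.31 in both. Set against the median of all genes, chromosome 14 lay at -0.289 among the 19393 genes and at -0.105 without the count filter and -0.109 by DESeq2, both over 41156 genes of which most are barely expressed. Of 280 windows of 10 Mb with at least 20 tested genes, 29 had a median of at least 0.3 and 23 of at most -0.3, 18.6% together, and all 52 kept their sign in zinc and in cadmium. The lowest window was 1 to 10000000 of chromosome 10 (median -0.87, 27 of 42 genes lower), and the next 30000001 to 40000000 of chromosome 18 (-0.73, 28 of 40 lower). The highest was 20000001 to 30000000 of chromosome X (0.73, 23 of 32 higher). DNA copy number was not measured, and its part in these values was not tested.

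**Figure D5:**
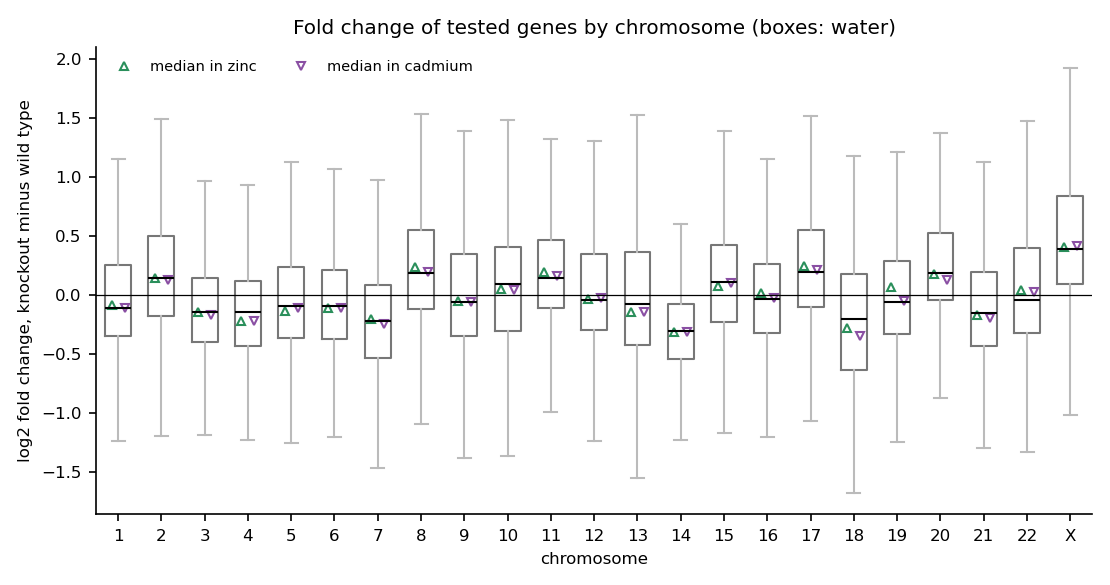
Log2 fold change (y axis) of tested genes by chromosome in water, as boxes of the quartiles with the median as a line and whiskers to 1.5 times the box, outliers not drawn, and triangles for the medians in zinc and cadmium. Chromosome X is highest at 0.40 and chromosome 14 lowest at -0.31, and the medians in zinc and cadmium lie close to those in water.

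The same contrast in the 12 metal libraries, which share no sample with the water libraries, gave the same direction for most genes. Of the 12200 genes called in water, 9617 were called the same way in zinc (78.8%, and 74.4% of the 12928 called there) and 451 the opposite way. In cadmium 9465 were called the same way (77.6%, and 72.8% of the 13003 called there) and 512 the opposite way. The called shares of all genes were 66.7% in zinc (34.0% higher and 32.7% lower) and 67.0% in cadmium (32.5% and 34.5%). Of the 1981 genes at least 2-fold higher in water, 1382 were so under both metals (69.8%; 67.2% of the 2058 in zinc and 68.5% of the 2018 in cadmium). Of the 873 at least 2-fold lower, 409 were so under both (46.8%; 37.2% of 1098 and 34.4% of 1190). The genotype difference itself changed with zinc in 4767 genes (24.6%) and with cadmium in 5448 (28.1%), tested as interactions. ANKRD1 was an example: its difference of 3.20 ± 0.15 in water was 2.53 in zinc and 1.15 in cadmium (cadmium minus water -2.05 ± 0.19, adjusted p = 7.27e-11, edgeR quasi-likelihood test, Benjamini-Hochberg). For FLNA the 3 values were 2.54, 2.58 and 2.75, for COL5A1 3.901, 4.01 and 4.202, and for CCND1 4.03, 4.24 and 4.13. Cholesterol synthesis kept a negative median (-0.63 in zinc, -0.58 in cadmium), and YAP/TAZ targets a positive one (0.87 and 0.50). In all 3 treatments 18 of the 24 cholesterol synthesis genes were lower, against 4057 of all 19393 genes. Among all genes, 6227 were lower in water.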

How the data were processed

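Poly(A)-selected stranded RNA libraries (TruSeq, per the labels' protocols) of 18 HEK293A samples, 3 in each of 6 groups of genotype and treatment, were deposited by the authors as 1 table of raw read counts per gene. Per the submitters' processing notes, STAR and the hg38 build (GRCh38.p13) were used. For versions and the counting of genes, nothing is stated (not given in the sources used here). The table equals the first of 3 count columns in each library's own file, which takes reads of both strands, so overlapping and antisense genes are not separated; the column that holds most reads served as an alternative. The handling of reads shared by near-identical genes is not stated.

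Genes were tested with edgeR 4.0.16 (R 4.3.3): filterByExpr (minimum count 10), TMM scaling, a quasi-likelihood fit of 6 group means over all 18 libraries, which share 1 estimate of spread, and Benjamini-Hochberg adjustment over 19393 genes at 0.05. Standard errors are the log2 fold change over the square root of F, and are too small where 1 genotype holds few counts. On simulated counts for 19145 genes, 50 were changed at each of 4 sizes. Recovered were 56% at 1.25-fold, 82% at 1.5-fold, 92% at 2-fold and 100% at 4-fold, with 7 unchanged genes called. All other genes were left unchanged, whereas 62.9% were called in the data. The adjusted cut-off was thus stricter in the simulation, and its shares do not carry over to the data. Gene positions and names follow GENCODE 29, which holds 58216 of the 58336 genes. Alternatives were library size alone, no filter, at least 5 CPM in 3 libraries, replicate number as a block, the strand with most reads, DESeq2 1.42.0, the 6 water libraries alone, and each water library left out.

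The 48 gene lists, 6 marker lists and regions were chosen with earlier results of these data known. By rule, 186 genes were open to naming: LATS1 and LATS2; Hippo, YAP/TEAD and target genes; the 12 highest and 12 lowest; the 6 largest rises and falls in CPM; 2 for each list; the 6 highest of those with at most 3 counts in 1 genotype; and those with opposite differences under a metal (3 each). For most of them the rule required 5 CPM on average and no overlap between the 3 wild-type and 3 knockout water libraries. It left out clone names and genes that mark sex. Other genes were named after their values were seen.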

Additional observations from a re-analysis of the deposited data

Results flagged for a closer look

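Of the genes called in water and called in the opposite direction under zinc (451) or cadmium (512), 5 are named, by a rule that takes the 3 largest such changes for each metal. The change itself was tested as an interaction (edgeR quasi-likelihood test, Benjamini-Hochberg over 19393 genes). MYC, the growth-promoting transcription factor, was lower in the knockout in water (-0.80) and higher in zinc (2.11) and cadmium (1.47), a change of 2.92 with zinc (adjusted p = 8.14e-24, edgeR) and 2.27 with cadmium (adjusted p = 6.67e-23, edgeR). TRIB1, a pseudokinase of the Tribbles family, went from -2.09 in water to 0.74 in zinc, a change of 2.82 (adjusted p = 1.25e-20, edgeR). DDIT4, a stress-induced inhibitor of mTORC1, went the other way, from 1.11 in water to -1.75 in zinc, a change of -2.86 (adjusted p = 1.89e-14, edgeR). Its wild-type water libraries were uneven, at 9.89, 3.89 and 4.05 CPM. ATF3, a stress transcription factor, went from 1.14 in water to -0.58 in cadmium, a change of -1.71 (adjusted p = 2.25e-21, edgeR). HEY1, a Notch effector, went from -0.80 to 0.88 in cadmium, a change of 1.68 (adjusted p = 1.65e-16, edgeR). All 6 changes use the same water libraries.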

How the results depend on the processing

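The count of 12200 called genes was 12119 with library size alone, 12321 without the filter, 12312 with the replicate number as a block, 12164 on the strand with most reads, 11254 by DESeq2 and 11941 from the 6 water libraries alone. It was 9210 among the 12011 genes of at least 5 CPM in 3 libraries, where 689 genes were higher and 323 lower by 2-fold. Without 1 library at a time, 11495 to 11706 were called, 5577 to 5747 higher and 5864 to 5972 lower, with 1970 to 2031 and 882 to 930 past 2-fold. Library size alone moved the median of all genes to 0.03 and the higher share of called genes from 49.0% to 55.3%; the medians of the FGF, heat shock, BCL2 and hypoxia lists then turned positive. Same-numbered libraries of the 2 genotypes showed no shared deviation over all tested genes (correlations of -0.006, -0.001 and 0.003). Whether they were handled together cannot be told from these values. The block changed no call of a named gene.

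Chromosome X lay 0.413 above all genes, and 0.295 without the filter, 0.401 at 5 CPM, 0.316 by DESeq2 and 0.400 to 0.421 without 1 library. Chromosome 14 lay at -0.289, and at -0.105, -0.277, -0.109 and -0.314 to -0.285 in the same order. The filter and DESeq2 values cover other sets of genes. Of the values of named genes under an alternative, 2529 kept direction and call, 10 lost the call (STK4, RBMS3, AREG and KRT10, each without 1 library) and 3 gained one (SAV1 with library size alone, at 0.10, and TEAD2). Of the counts of list members, 1358 stayed within 1.5 times, 43 moved to a smaller and 3 to a larger count. Genes under 1 CPM rest on few reads, and small differences can have gone uncalled. The simulated recovery of 56% at 1.25-fold came with far fewer changed genes than were called here, so it does not measure how many.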
